A study of Mus musculus with 2 samples.

Results

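The 10 genes described here encode the chemokines Ccl19, Ccl21a, Cxcl13 and Cxcl12, the receptors Ccr7, Cxcr5 and Cxcr4, the lymphotoxins Lta and Ltb, and the lymphotoxin receptor Ltbr. They were taken as a list by symbol from the 31053 gene rows of the matrices, and all 10 were found. Their unique molecular identifiers (UMIs, tags that count each captured RNA molecule 1 time) were summed by cell class in single-nucleus RNA-Seq of the inguinal fat pad of mice, a white adipose depot under the skin (iWAT). There was 1 library with the genotype label Lexis WT and 1 with the label Lexis KO. Lexis is a long noncoding RNA. In the study, Adipoq-driven Cre, which is active in adipocytes, deleted floxed Lexis in Lexis-AdKO mice, and littermates without Cre were Lexis-AdWT. All animals were male and had been fed a Western diet, iWAT of 3 mice was pooled for each library, and the study's protocol states that the lymph node was left out.

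For both libraries the file names and the labels give contrary genotypes, and no row for Lexis was found, so the targeted gene could not check the labels. They are named by their labels alone throughout, as the WT-labelled and the KO-labelled library. After keeping barcodes with at least 500 genes and at most 5% mitochondrial UMIs, the WT-labelled library held 3649 of 5000 nuclei with a median of 1208 UMIs, and the KO-labelled library held 2944 of 5000 with a median of 3973.5. The libraries shared 10 of the kept cell barcodes. With 1 library per genotype there is no replicate and no test. Every interval below is an exact 95% interval for counting error only, and a difference described below is a difference between these libraries, in which genotype, pool and preparation cannot be told apart.

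Ccl19 and Ccl21 are the ligands of Ccr7 and guide T cells and dendritic cells. Cxcl13 is the ligand of Cxcr5 and draws B cells into follicles, and Cxcl12 is the ligand of Cxcr4 and is made by many stromal and vascular cells. Lymphotoxin, made of Lta and Ltb by lymphocytes, acts on Ltbr on stromal cells, and this signal through noncanonical NF-kB is known to maintain the chemokine-producing stroma of lymph nodes and of lymphoid clusters in fat.

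Promoter sequence is shown for 3 chemokines that were highest in the same cell class and for Ltb, the member with most UMIs in lymphocytes. Each is the 250 bases before the annotated start, written 5′ to 3′ along the strand of the gene, from RefSeq on GRCm38.p6, the same mouse assembly as the mm10 named in the submitters' processing notes.
Ccl21a, chr4:42773992-42774241, minus strand: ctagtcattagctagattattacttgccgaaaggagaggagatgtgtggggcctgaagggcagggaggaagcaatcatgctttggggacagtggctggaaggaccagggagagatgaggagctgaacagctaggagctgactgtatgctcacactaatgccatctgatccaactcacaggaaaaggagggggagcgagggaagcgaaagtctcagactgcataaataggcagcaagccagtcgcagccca
Ccl19, chr4:42756366-42756615, minus strand: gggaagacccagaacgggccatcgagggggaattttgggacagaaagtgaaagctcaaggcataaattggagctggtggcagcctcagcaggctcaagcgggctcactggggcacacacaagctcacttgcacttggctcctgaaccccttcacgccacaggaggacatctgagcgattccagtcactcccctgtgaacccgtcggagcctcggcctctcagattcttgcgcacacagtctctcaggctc
Cxcl13, chr5:95956689-95956938, plus strand: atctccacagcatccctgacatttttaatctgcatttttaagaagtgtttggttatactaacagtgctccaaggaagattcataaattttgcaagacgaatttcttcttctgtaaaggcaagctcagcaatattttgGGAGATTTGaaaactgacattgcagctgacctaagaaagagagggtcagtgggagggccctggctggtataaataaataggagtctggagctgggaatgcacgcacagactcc
Ltb, chr17:35194257-35194506, plus strand: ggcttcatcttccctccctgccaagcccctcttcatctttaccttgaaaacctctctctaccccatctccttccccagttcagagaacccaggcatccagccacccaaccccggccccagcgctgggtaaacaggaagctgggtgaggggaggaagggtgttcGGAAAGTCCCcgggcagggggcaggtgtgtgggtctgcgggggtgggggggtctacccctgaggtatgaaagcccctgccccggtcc
Capitals mark a match to GGAGANTTG, the form of kB site tied to noncanonical NF-kB, or to GGGANTTTCC, the classical form, both searched on both strands. In the Cxcl13 window, 104 bases lie between the end of the match (GGAGATTTG) and the start. In the Ltb window, 77 bases lie between the end of the match (GGAAAGTCCC) and the start. The Ltb match is the classical form read from the opposite strand. Over 32851 windows of the same length in RefSeq, 331 (1.01%) held the noncanonical form and 117 (0.356%) the classical form. Among the 8 members with a window (Ccr7 and Cxcr5 had no entry), 1 held each form, and no window of a member held both. A match is a description of letters and not of binding.

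Ccl19 (ENSMUSG00000071005) spans chr4:42754525-42756365 and Ccl21a (ENSMUSG00000094686) the nearby chr4:42772860-42773991, both on the minus strand. Cxcl13 (ENSMUSG00000023078) spans chr5:95956939-95961068 and Cxcl12 (ENSMUSG00000061353) chr6:117168535-117181368. Ltb (ENSMUSG00000024399, chr17:35194507-35196305) and Lta (ENSMUSG00000024402, chr17:35203165-35205578) are neighbours on opposite strands, and Ltbr (ENSMUSG00000030339) spans chr6:125306571-125313885. Ccr7 (ENSMUSG00000037944) spans chr11:99144199-99155077, Cxcr5 (ENSMUSG00000047880) chr9:44511787-44526444 and Cxcr4 (ENSMUSG00000045382) chr1:128588199-128592299. Ccl21a has near-identical gene copies. The RefSeq promoter entries of Ccl21a and Ccl21d, which run from 250 bases before to 50 after the start, were identical at 297 of 299 aligned bases (99.3%), rows named Ccl21b held 0 UMIs and rows named Ccl21c held 1, so Ccl21a values may include RNA of a copy. A further row each for Ccl19 and Ccl21a, under another identifier, was at 0.

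Nuclei were clustered without the 10 genes and without their partner genes, and clusters were named from marker lists, so each name stands for a class that is like that cell type. The classes of the WT-labelled library held 1250 B cell, 799 T or NK cell, 453 adipocyte, 353 myeloid, 332 adipogenic stem and precursor cell (ASPC), 158 lymphoid stroma, 98 dendritic, 96 endothelial and 10 mural nuclei, and 100 dividing nuclei that stayed unnamed. Those of the KO-labelled library held 955 adipocyte, 814 myeloid, 797 ASPC, 125 endothelial, 69 T or NK cell, 58 myocyte, 46 mural, 37 dendritic, 37 B cell, 5 dividing and 1 lymphoid stroma nuclei. The lymphoid stroma class is 1 cluster in which 10 of 13 listed markers passed, against 6 of 10 mural markers. Ch25h, an oxysterol enzyme of lymphoid stroma, was 35.4-fold (22.1 to 57.5) higher in it than in the other nuclei of its library. Clu, found in follicular stroma, was 18.4-fold higher (16.2 to 20.9). Cr2, a marker of follicular dendritic cells that B cells also carry, was 1.06-fold (0.838 to 1.33). Madcam1 gave 6 UMIs and Coch 2. Markers of another type moved with the class, since 6 epithelial markers summed to 83 UMIs in it (280 CPM, 0 of 6 at 0), against 79 UMIs (58.4 CPM) in B cells, and their part in the levels below was not tested.

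Most classes were built from different clusters in the libraries. B cells were cluster 0 in the WT-labelled library (1250 nuclei) and cluster 17 in the KO-labelled library (34 of 37). T or NK cells were cluster 2 in the WT-labelled library (798 nuclei), led by the T cell receptor genes Trbc2, Trbc1 and Cd3d, and cluster 14 in the KO-labelled library (62 of 69), led by the natural killer genes Klra8, Klra4, Gzma and Ncr1. Adipocytes were cluster 4 and cluster 1, ASPCs mainly cluster 7 against clusters 5 and 6, and myeloid nuclei mainly cluster 8 against clusters 3 and 9. Endothelial nuclei were 1 cluster in both libraries. The small KO-labelled classes also depend on possible doublets (droplets with more than 1 nucleus). When the 4% of barcodes with the highest doublet scores in each library were left out, 3 KO-labelled nuclei were named B cell in place of 37, and 10 dendritic in place of 37. The KO-labelled B cell and dendritic values below, and their ratios, could not be given under that setting.

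Levels are given as CPM, the UMIs of a gene for every 1000000 UMIs of its class. Free RNA from broken nuclei adds UMIs to every droplet. It was measured for the chemokines in B cells and for the receptors and lymphotoxins in adipocytes, which are not known to make them. B cells of the KO-labelled library were too few for this, and its adipocytes were used for the chemokines too. Whether these adipocytes made chemokine RNA was not tested, so a chemokine fold over them need not be a fold over free RNA. A level at or below that of the reference class is read as background. Free RNA is added to each droplet, so CPM is an uneven measure of it between classes that differ in depth.

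**Figure D1:**
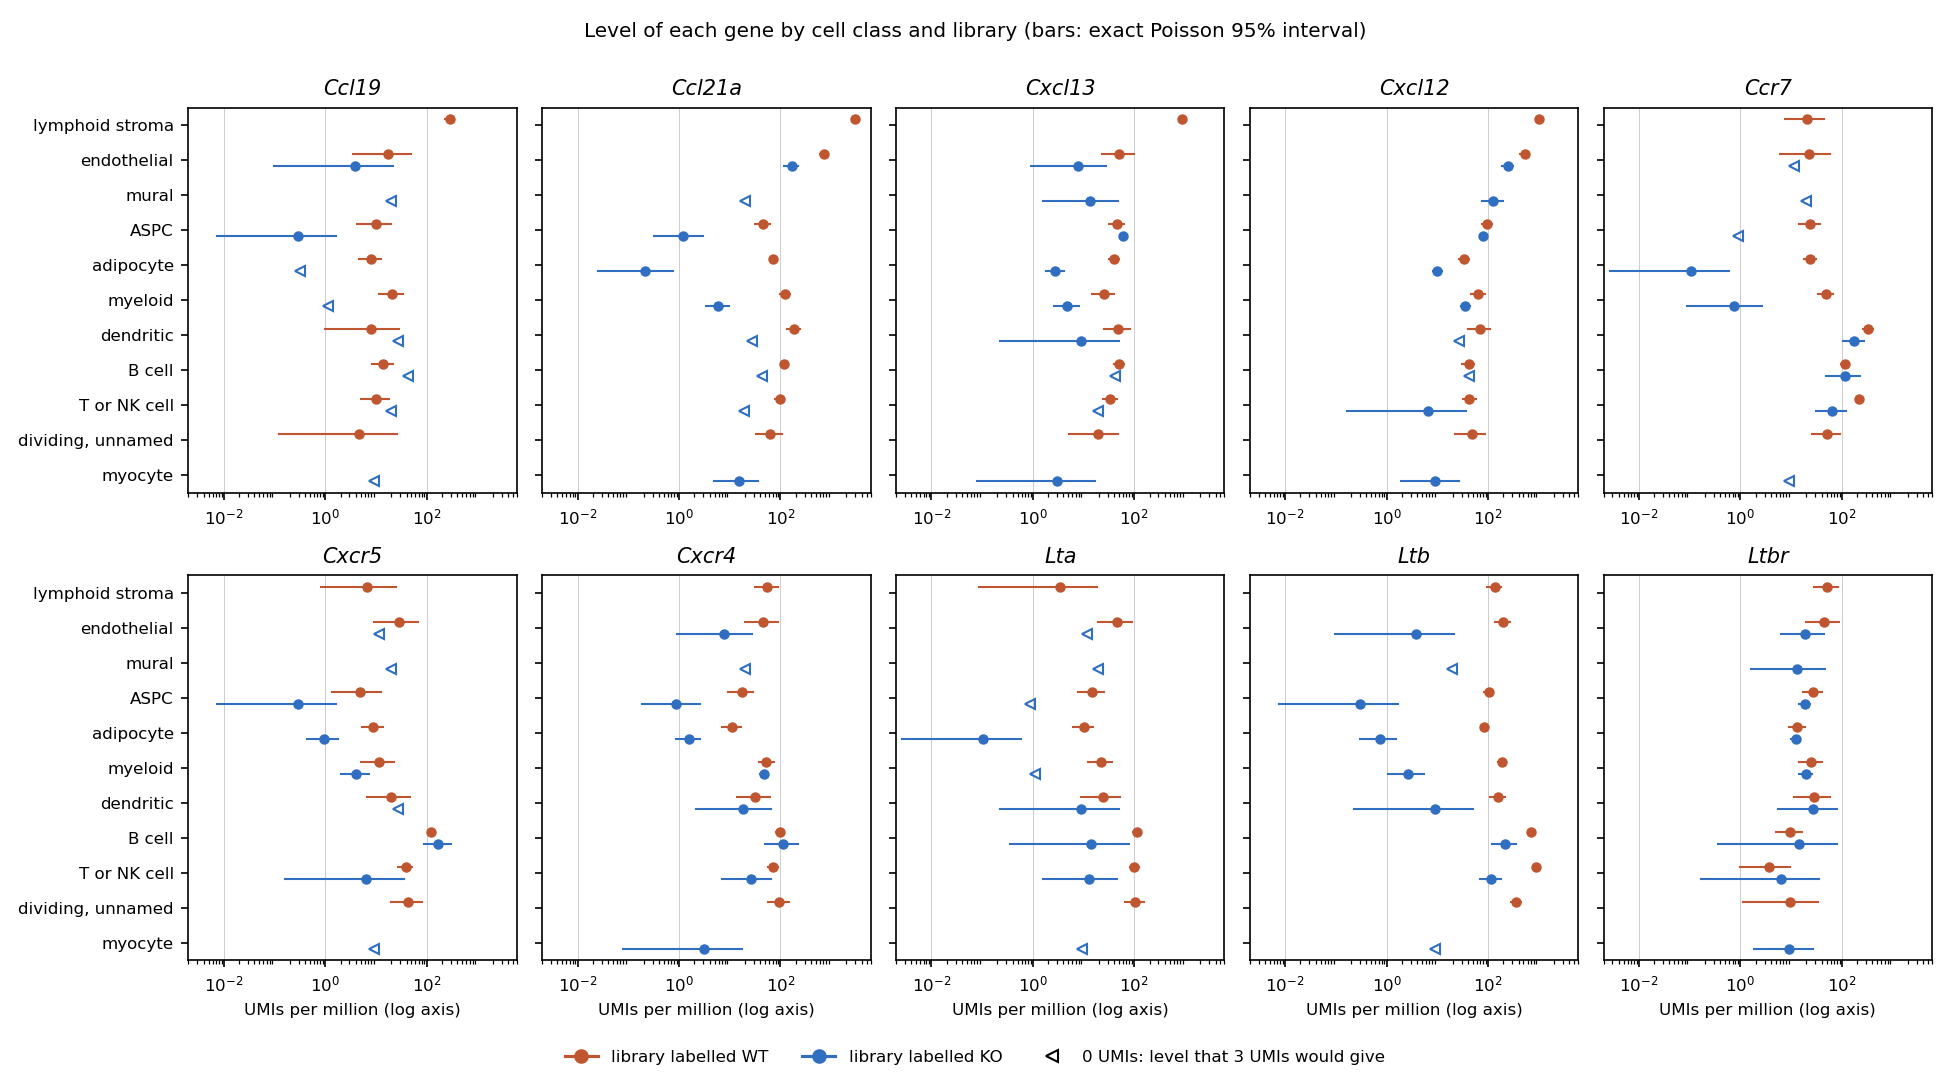
Level of each gene (in CPM, UMIs scaled to the class total, log axis) in each class of the WT-labelled library (red-brown) and the KO-labelled library (blue), with exact Poisson 95% intervals; open triangles stand at the level that 3 UMIs would give where 0 were found, and classes under 20 nuclei are not drawn. Ccl19, Ccl21a, Cxcl13 and Cxcl12 were highest in lymphoid stroma, and Ltb stood highest in T or NK cells and B cells.

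All 4 chemokines were highest in the lymphoid stroma nuclei of the WT-labelled library. Ccl21a reached 879 UMIs there, a level of 2969 CPM (2776 to 3172). B cells of the same library had 118 CPM (101 to 138), a 25.1-fold difference (21.2 to 29.9). Endothelial nuclei followed with 731 CPM, above the 181 CPM of dendritic nuclei, of whose 45 UMIs 27 lay in 1 nucleus. Myeloid, B cell, T or NK cell, adipocyte, dividing and ASPC nuclei had between 45.4 and 123 CPM, and no neighbours in that order had separate intervals. These lower levels are read as background.

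Ccl19 had 84 UMIs in 34 lymphoid stroma nuclei, a level of 284 CPM (226 to 351), 20.2-fold (12.2 to 35.2) above the 14.1 CPM of B cells. In the other classes with at least 20 nuclei of that library its level was between 4.73 and 20.5 CPM, and none had an interval above the B cell level. The library labelled KO held 2 Ccl19 UMIs in all, 1 in an endothelial and 1 in an ASPC nucleus.

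Cxcl13 had 262 UMIs in 47 lymphoid stroma nuclei, a level of 885 CPM (781 to 999), 17.6-fold (13.4 to 23.3) above the 50.3 CPM of B cells. The next classes of the WT-labelled library were endothelial at 51.0 CPM, dendritic at 48.2, ASPC at 45.4 and adipocyte at 40.0. None of these differed from B cells beyond counting error, so by CPM no Cxcl13 above background was seen outside lymphoid stroma in that library. Per nucleus, B cells had 0.0544 UMIs, ASPC cluster 7 had 0.107 and adipocytes had 0.192. The median depths of these classes were 960.5, 1664.5 and 3686 UMIs. The CPM reading thus cannot tell free RNA from low expression in the deeper classes.

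Cxcl12 had 295 UMIs in 83 lymphoid stroma nuclei, a level of 997 CPM (886 to 1117), 24.1-fold (18.0 to 32.6) above B cells. Its pattern was wider than that of the other 3. Endothelial nuclei had 527 CPM (425 to 646) and ASPCs 95.8 CPM (75.7 to 120), which were 12.7-fold (9.04 to 18.1) and 2.31-fold (1.62 to 3.32) above B cells. Myeloid nuclei had 64.5 CPM, 1.56-fold (1.02 to 2.35).

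**Figure D2:**
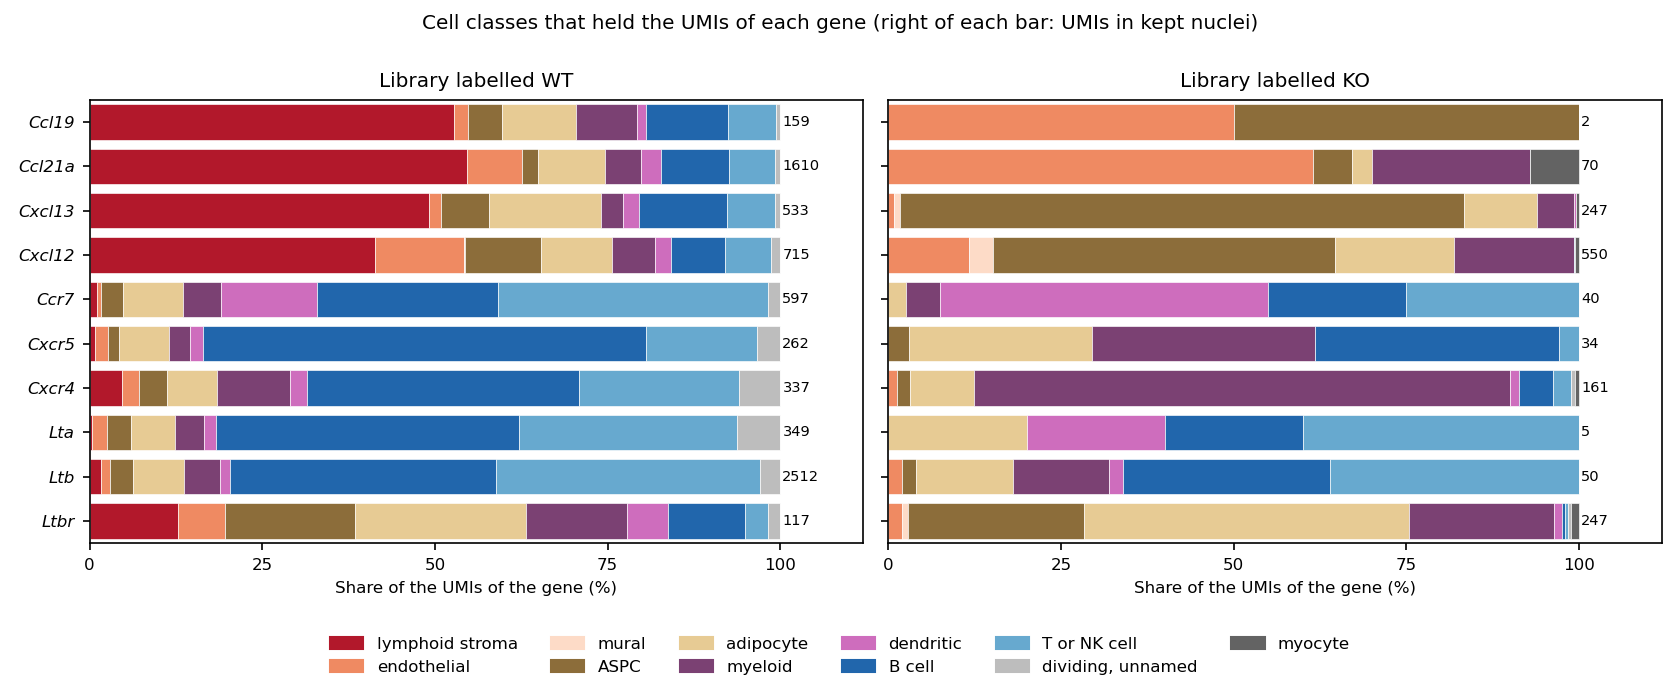
Share (%) of the UMIs of each gene that each cell class held, for the WT-labelled library (left) and the KO-labelled library (right), with the UMIs of the gene in kept nuclei at the end of each bar. Lymphoid stroma held between 41.3% and 54.6% of each chemokine in the WT-labelled library, while ASPCs held 81.8% of Cxcl13 in the KO-labelled library.

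Lymphoid stroma gave 4.19% of the UMIs of the WT-labelled library but 54.6% of its Ccl21a, 52.8% of its Ccl19, 49.2% of its Cxcl13 and 41.3% of its Cxcl12. This class held 1 nucleus in the KO-labelled library, so its chemokine levels could not be compared between the libraries. Fewer cells of a type and less RNA per cell cannot be told apart in the totals over all nuclei. Those totals were 1610 and 70 UMIs for Ccl21a and 533 and 247 for Cxcl13 in the WT-labelled and KO-labelled libraries. Scaled to all UMIs of each library, they were 228 and 4.21 CPM for Ccl21a and 75.4 and 14.9 CPM for Cxcl13.

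Within lymphoid stroma, Ccl19 was found almost only where Ccl21a was found. Of the 34 nuclei with a Ccl19 UMI, 32 (94.1%) also had Ccl21a, against 77 of all 158 (48.7%). Cxcl13 did not follow this. Of the 47 nuclei with Cxcl13, 20 (42.6%) had Ccl21a, and Cxcl13 was found in 26.0% of nuclei with Ccl21a and 33.3% of the 81 without it. Cxcl12 was found in 77.9% of nuclei with Ccl21a and 28.4% of those without. Depth moved with these counts. Nuclei with Ccl21a had a median of 1710 UMIs and those without 1364, and the part of depth in the co-detection was not tested. By number of chemokines found, 41 nuclei had 0, 36 had 1, 42 had 2, 35 had 3 and 4 had all 4, with median depths of 1228, 1361.5, 1791, 1774 and 2501 UMIs.

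The chemokine RNA was also uneven between these nuclei. The 5 nuclei with most Cxcl13 held 122 of its 262 UMIs (46.6%), and 1 of them held 54. Without their UMIs the level was 473 CPM. For Ccl21a the top 5 held 30.1% of UMIs and for Cxcl12 20%, so Cxcl12 was the most evenly spread of the 3 in this class.

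**Figure D3:**
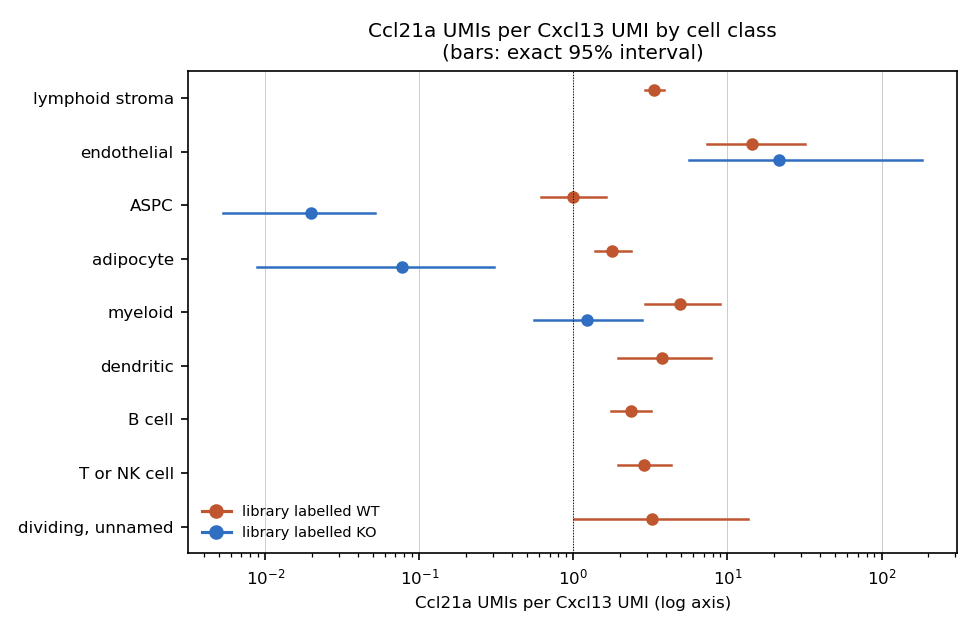
Ccl21a UMIs per Cxcl13 UMI (log axis) in each cell class of the WT-labelled library (red-brown) and the KO-labelled library (blue), with exact 95% intervals; the dotted line marks equal counts. Endothelial nuclei stood highest in both libraries, at 14.3 and 21.5, and ASPCs stood at 1.00 in the WT-labelled library and 0.0198 in the KO-labelled library. Outside lymphoid stroma, Cxcl13 of the WT-labelled library was not above the B cell level in CPM.

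The ratio of Ccl21a to Cxcl13 UMIs was compared between classes. It was 3.35 in WT-labelled lymphoid stroma (2.92 to 3.87), 2.35 in B cells (1.76 to 3.17) and 2.86 in T or NK cells (1.95 to 4.29). Endothelial nuclei had 14.3 (7.32 to 32.1), apart from these classes. ASPCs had 1.00 (0.617 to 1.62) and adipocytes 1.79 (1.37 to 2.36), both with intervals below that of lymphoid stroma, and ASPCs also below B cells. Outside lymphoid stroma, Cxcl13 of the WT-labelled library was not above the B cell level in CPM. These ratios may thus hold free RNA and do not compare expression by those classes alone. Few nuclei also carried many of the UMIs. The top 5 held 52 of 87 Cxcl13 UMIs in adipocytes, 20 of 37 in ASPCs and 92 of 129 Ccl21a UMIs in endothelial nuclei.

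Ccl21a in endothelial nuclei was carried by few nuclei. Of the 96 nuclei of the WT-labelled library, 22 held 129 UMIs, 1 of them 43, and the top 5 held 71.3%. Without their UMIs the level was 210 CPM. Of the 125 of the KO-labelled library, 3 held all 43 UMIs, a level of 165 CPM (120 to 222). The ratio of the levels, labelled KO over labelled WT, was 0.226 (0.156 to 0.321), with 22 of the 43 UMIs in 1 nucleus.

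Lymphatic endothelium is a known source of Ccl21. Endothelial nuclei were therefore split, after the values had been seen, by whether they held a UMI of Prox1, Flt4, Mmrn1 or Reln. The 7 KO-labelled nuclei with such a gene held 42 of the 43 Ccl21a UMIs, all in 2 nuclei, and the 118 without held 1. Among WT-labelled nuclei, 39 with such a gene had 65 UMIs (835 CPM) and 57 without had 64 (649 CPM). Ccl21a in the WT-labelled library was thus not limited to endothelial nuclei in which a lymphatic gene was detected. Median depths with and without such a gene were 1327 and 1265 UMIs in the WT-labelled library, and 2852 and 1615 in the KO-labelled library. At these depths a lymphatic gene that was missed cannot be told from one that was absent. Genes of high endothelial venules, the vessels by which lymphocytes enter lymph nodes (Glycam1, Chst4, Madcam1, Fut7, Selp and Ackr1), summed to 146 UMIs (827 CPM, 0 of 6 genes at 0) in endothelial nuclei of the WT-labelled library and 16 UMIs (61.5 CPM, 1 of 6 at 0) in those labelled KO. The 6 lymphatic markers summed to 227 UMIs (1286 CPM) and 70 UMIs (269 CPM). The part of this makeup in the Ccl21a difference was not tested.

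Cxcl12 in WT-labelled endothelial nuclei went the other way in this split. WT-labelled nuclei without a lymphatic gene had 862 CPM (689 to 1066) and those with one had 103 CPM (44.3 to 202). KO-labelled levels were 253 CPM (193 to 324) and 160 CPM (32.9 to 466), with overlapping intervals. The totals were 93 UMIs (527 CPM) in the WT-labelled library and 64 UMIs (246 CPM, 189 to 314) in the KO-labelled library, a ratio of 0.466 (0.334 to 0.648). Of the 93 UMIs, 30 lay in 1 nucleus and 53 in 5. Without the UMIs of the top 5 nuclei of each library the levels were 227 and 149.8 CPM. Relative to genes of like intronic length the interval included no difference, as given below. The share of endothelial nuclei with a Cxcl12 UMI was 28.1% (27 of 96) and 28.0% (35 of 125), and 10.4% and 8.80% after each nucleus was thinned to 500 UMIs.

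Cxcl13 in the KO-labelled library was found mainly in ASPCs. They held 202 of 247 UMIs (81.8%), a level of 59.5 CPM (51.6 to 68.3), 21.6-fold (14.3 to 33.9) above adipocytes at 2.75 CPM (1.80 to 4.03). The UMIs lay in 70 of 797 nuclei (8.78%, and 2.51% after thinning to 500 UMIs), with at most 22 in a nucleus. The top 5 nuclei held 77 UMIs, and without these the level was 36.8 CPM. Ccl21a had 4 UMIs in these nuclei and Ccl19 had 1, so Cxcl13 was found there nearly without the Ccr7 ligands. Cxcl12 was found in 18 of the 70 nuclei with Cxcl13 (25.7%) and in 15.7% of the 727 without, with median depths of 4520 and 3451 UMIs.

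The 2 large ASPC clusters of the KO-labelled library differed more in Cxcl12 than in Cxcl13. Cluster 5, led by Pde11a, Sfrp2 and Ccbe1, had 124 CPM of Cxcl12 (110 to 141), and cluster 6, in which Pi16 and Dpp4 passed, had 7.90 CPM (3.79 to 14.5). Cxcl13 was 55.9 CPM (46.2 to 67.1) in cluster 5 and 49.0 CPM (37.5 to 62.8) in cluster 6. Cluster 7 holds most ASPCs of the WT-labelled library. Cxcl13 was higher only in its 28 nuclei of the KO-labelled library, at 353 CPM (229 to 521), from 25 UMIs in 4 nuclei. Its 327 WT-labelled nuclei had 45.0 CPM (31.3 to 62.6).

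ASPC levels of Cxcl13 were 45.4 CPM in the WT-labelled library (37 UMIs in 21 nuclei, the top 5 holding 20) and 59.5 CPM in the KO-labelled library, a ratio of 1.31 (0.919 to 1.91). By CPM, the former did not exceed background and the latter did, so the ratio does not compare ASPC expression alone. Cxcl12 in ASPCs was 95.8 CPM and 80.4 CPM (71.2 to 90.6), a ratio of 0.840 (0.651 to 1.09) that included no difference. Scaled without mitochondrial genes and Malat1 its log2 was −0.51 (−0.88 to −0.13), and relative to genes of like intronic length 0.29 (−0.08 to 0.67). The latter scaling gave Cxcl13 in ASPCs a log2 of 0.87 (0.36 to 1.41), above no difference. Mural nuclei of the KO-labelled library had 125 CPM of Cxcl12 (75.0 to 194), 12.5-fold (7.21 to 20.6) above adipocytes, and myeloid nuclei had 35.6 CPM (28.8 to 43.5), 3.58-fold (2.66 to 4.81) above them. The lymphocyte genes Ltb and Cxcr5 were also 3.50-fold and 4.28-fold above adipocytes in these myeloid nuclei. Myeloid nuclei had 0.118 Cxcl12 UMIs per nucleus and adipocytes 0.0984, at median depths of 2950 and 8082 UMIs. The myeloid fold thus cannot tell expression from free RNA. Of the myeloid clusters, cluster 3 had 47.0 CPM and cluster 9 had 10.4 CPM, near the 9.95 CPM of adipocytes.

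**Figure D4:**
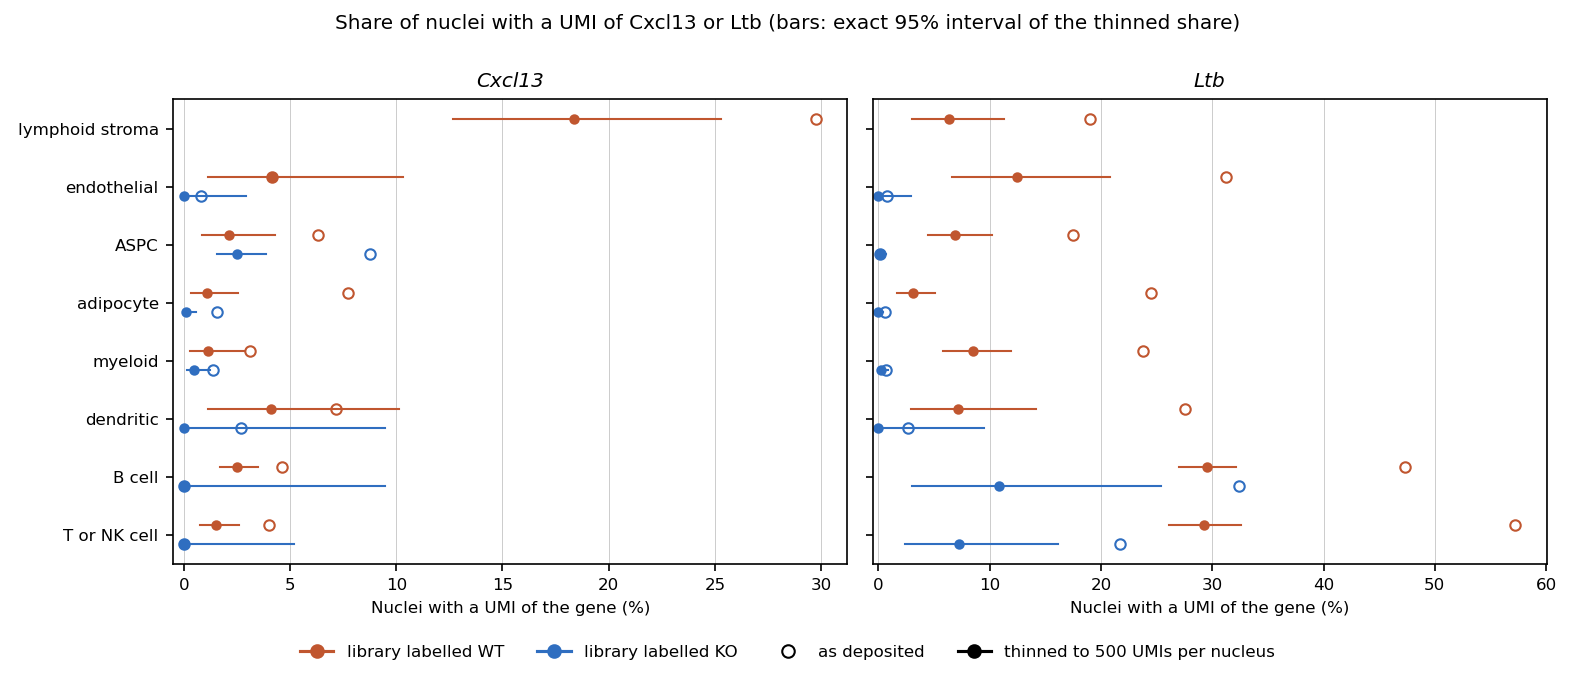
Share of nuclei (%) with a UMI of Cxcl13 (left) or Ltb (right) in 8 classes, as deposited (open circles) and after thinning to 500 UMIs per nucleus (filled circles, with exact 95% intervals), for the WT-labelled library (red-brown) and the KO-labelled library (blue). The shares of ASPCs with Cxcl13 are 2.11% and 2.51% at equal depth, and Ltb is found in 29.5% of B cell and 29.3% of T or NK cell nuclei of the WT-labelled library.

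Among the receptors, Ccr7 was highest in dendritic nuclei. Those of the WT-labelled library had 83 UMIs, a level of 333 CPM (265 to 413), 13.9-fold (9.74 to 20.1) above adipocytes. T or NK cells had 213 CPM (187 to 243) and B cells 115 CPM (98.0 to 135), and all 3 intervals were separate. T or NK cells held 39.0% of all Ccr7 UMIs, B cells 26.1% and dendritic nuclei 13.9%. Per nucleus, B cells had 0.125 Ccr7 UMIs and adipocytes 0.115, so the B cell level of this library cannot tell expression from free RNA. Ccr7 is known to rise when dendritic cells mature. Dendritic nuclei with a UMI of the maturation genes Fscn1 or Ccl22, a split chosen after the values had been seen, had Ccr7 in 21 of 37 nuclei (427 CPM, 321 to 557), and those without in 17 of 61 (237 CPM, 158 to 340). The CPM intervals overlapped. Median depths were 2756 and 1824 UMIs, and the part of depth was not tested.

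Dendritic nuclei of the KO-labelled library had 19 Ccr7 UMIs in 4 of 37 nuclei, a level of 173 CPM (104 to 270). The ratio to the WT-labelled library was 0.518 (0.297 to 0.861), and relative to genes of like intronic length its log2 was −0.56 (−1.36 to 0.17), which included no difference. By TMM scaling the log2 was −1.30 (−2.10 to −0.57), and without mitochondrial genes and Malat1 −1.39 (−2.19 to −0.66). B cells had 8 UMIs, or 113 CPM, and a ratio of 0.983 (0.417 to 1.99). T or NK cells had 10 UMIs, or 64.6 CPM, and a ratio of 0.303 (0.143 to 0.567), or a log2 of −1.72, with a T cell receptor gene cluster on the side labelled WT and a natural killer gene cluster on the side labelled KO. By intronic length its log2 was −1.03 (−2.11 to −0.12), and after thinning to 500 UMIs −0.77 (−2.43 to 0.50). ASPCs, endothelial, mural and myocyte nuclei of the KO-labelled library had 0 Ccr7 UMIs, which in ASPCs allows up to 0.884 CPM.

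Cxcr5 was the receptor most tied to B cells. WT-labelled B cells had 168 UMIs, 64.1% of all, at 124 CPM (106 to 145), 14.2-fold (8.83 to 24.2) above adipocytes. T or NK cells had 38.4 CPM (27.7 to 52.0), 4.40-fold (2.51 to 8.02) above adipocytes. Per nucleus, T or NK cluster 2 had 0.0526 Cxcr5 UMIs and adipocytes 0.0419, at class median depths of 1092 and 3686 UMIs. The T or NK cell fold thus cannot tell expression from free RNA. KO-labelled B cells had 12 UMIs, or 170 CPM (87.9 to 297), a ratio of 1.37 (0.694 to 2.46). Relative to genes of like intronic length its log2 was 0.99 (0.01 to 1.83), an interval above no difference. The other classes of that library together had 22 UMIs, of which 11 were in myeloid nuclei (4.08 CPM).

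Cxcr4 was spread more widely. In the WT-labelled library, B cells had 98.4 CPM (82.4 to 117), dividing nuclei 94.6, T or NK cells 71.4, lymphoid stroma 54.0 and myeloid nuclei 52.8 (36.9 to 73.0), and no neighbours in that order had separate intervals. All 5 were above the 11.0 CPM of adipocytes. In the KO-labelled library, myeloid nuclei held 125 of 161 UMIs (77.6%), a level of 46.4 CPM (38.6 to 55.2) and 29.2-fold (17.0 to 53.7) above adipocytes. The myeloid ratio was 0.879 (0.602 to 1.31) and the B cell ratio 1.15 (0.488 to 2.34), neither apart from 1. Relative to genes of like intronic length, the B cell log2 ratio was 1.13 (−0.11 to 2.15), against 0.21. It was −0.23 after integration, −0.16 by TMM scaling and −0.68 after thinning to 500 UMIs. KO-labelled T or NK cells had 4 UMIs, or 25.8 CPM (7.04 to 66.2), and their ratio is among those counted below.

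Ltb had more UMIs than any other member in the WT-labelled library (2512, or 356 CPM), and lymphocytes held most of them. The KO-labelled library had 50 (3.01 CPM). T or NK cells of the WT-labelled library had 958 UMIs, or 877 CPM (822 to 934), and B cells had 967, or 715 CPM (671 to 762). The intervals were separate, and the levels were 10.4-fold (8.89 to 12.3) and 8.51-fold (7.26 to 10.0) above adipocytes. By CPM, dividing (4.22-fold), endothelial (2.36-fold), myeloid (2.28-fold), dendritic (1.86-fold) and lymphoid stroma nuclei (1.61-fold) were also above adipocytes beyond counting error, and ASPCs were not. Per nucleus, adipocytes had 0.404 Ltb UMIs, dendritic nuclei 0.398, endothelial 0.365, myeloid cluster 8 0.355 and lymphoid stroma 0.253. Dividing nuclei (0.75) and the 21 nuclei of myeloid cluster 9 (0.619) had more. The endothelial, dendritic, lymphoid stroma and myeloid folds thus cannot tell expression from free RNA. The source of Ltb outside lymphocytes was not tested. A UMI was found in 457 of 799 T or NK cells (57.2%) and 591 of 1250 B cells (47.3%). At 500 UMIs per nucleus the shares were 29.3% and 29.5%, against 3.09% in adipocytes, which had a median of 3686 UMIs before thinning.

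KO-labelled B cells had 15 Ltb UMIs in 12 of 37 nuclei, or 213 CPM (119 to 351), and T or NK cells 18 UMIs in 15 of 69 nuclei, or 116 CPM (68.9 to 184). The ratios were 0.297 (0.166 to 0.493) in B cells and 0.133 (0.0782 to 0.211) in T or NK cells. Relative to genes of like intronic length they were 0.592 (0.330 to 0.981) and 0.232 (0.137 to 0.368), so that the B cell value was no longer below 0.5. Different clusters held each class in the libraries, as described above, and cluster 14 alone, led by natural killer genes, had 109 CPM. Lymphocytes of the KO-labelled library still held Ltb above the free RNA of their library, in which adipocytes had 7 UMIs (0.741 CPM).

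Lta, which shares the locus with Ltb, was found in the same classes at fewer UMIs. In the WT-labelled library, B cells had 153 UMIs (113 CPM, 95.9 to 133), T or NK cells 110 (101 CPM, 82.8 to 121) and dividing nuclei 22 (104 CPM). In T or NK cells 1 nucleus held 28 UMIs, and without the UMIs of the top 5 nuclei the level was 60.4 CPM. Of the 65 T or NK nuclei with Lta, 50 (76.9%) also had Ltb, against 57.2% of the class. The library labelled KO held 5 Lta UMIs in all, 2 of them in T or NK cells and 1 in B cells.

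Ltbr, the receptor on the stromal side, was low and broad. In the WT-labelled library, lymphoid stroma had 15 UMIs (50.7 CPM, 28.4 to 83.6), endothelial nuclei 8 (45.3 CPM), dendritic nuclei 7 (28.1 CPM) and ASPCs 22 (27.0 CPM). Myeloid nuclei (24.9 CPM), adipocytes (13.3 CPM), B cells (9.62 CPM) and dividing nuclei (9.46 CPM) followed, and T or NK cells had 3.66 CPM (0.998 to 9.38), the lowest among classes with at least 20 nuclei. No neighbours in this order had separate intervals, while ASPCs (16.9 to 40.9) stood above B cells (5.12 to 16.4). In the KO-labelled library, adipocytes held 116 of 247 UMIs (47.0%), ASPCs 63 and myeloid nuclei 52, at 12.3, 18.6 and 19.3 CPM. The ratios were 0.922 (0.609 to 1.44), 0.687 (0.417 to 1.17) and 0.774 (0.440 to 1.43), and all 3 intervals included 1, though under 2 other settings that of ASPCs did not.

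**Figure D5:**
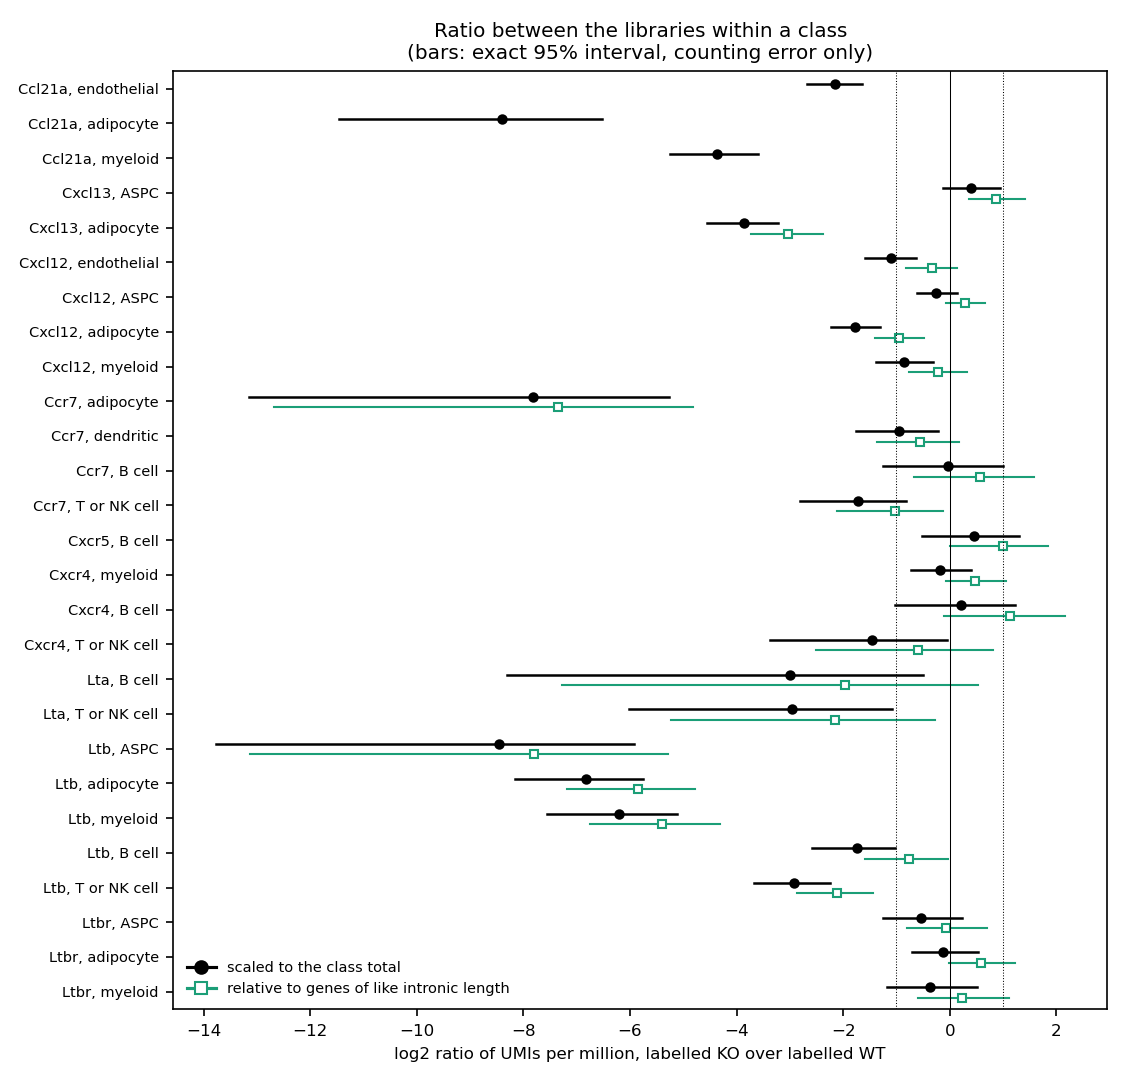
Log2 ratio of the level in the KO-labelled library over the WT-labelled library for each gene and class with at least 50 UMIs and at least 1 UMI in each library, scaled to the class total (black circles) and relative to genes of like intronic length (open green squares, not available for Ccl21a), with exact 95% intervals; dotted lines mark log2 ratios of 1 and −1. Values for Ccl21a and Ltb in adipocytes and myeloid nuclei lie far to the left, and those of Ltbr lie between −0.54 and 0.59.

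The members were then set beside all genes with at least 50 UMIs in a class over both libraries. Most members passed that filter through the WT-labelled library, where they were high, so the counts are descriptive. In endothelial nuclei, the ratio was 2 or more for 31.0% of 1872 genes and 0.5 or less for 15.0%, and the 2 members tested, Ccl21a and Cxcl12, were in the latter group. In ASPCs the shares were 24.6% and 9.59%, and 1 of 4 members, Ltb, had a ratio of at most 0.5. In adipocytes they were 25.5% and 18.3%, and 5 of 6 members were at most 0.5, all but Ltbr. In myeloid nuclei they were 23.7% and 13.5%, and Ccl21a and Ltb of 5 members were at most 0.5. In adipocytes, the WT-labelled levels of those 5 members (Ccl21a, Cxcl13, Cxcl12, Ccr7 and Ltb) are themselves read as background, and the source of this RNA was not tested. Relative to genes of like intronic length, the adipocyte ratio of Cxcl12 was 0.518 (0.378 to 0.712), no longer at most 0.5. Of the 87 Cxcl13 UMIs in adipocytes, 52 lay in 5 nuclei. Also at background were Ltb in ASPCs, at 1.23-fold (0.936 to 1.60) the adipocyte level, and Ccl21a in myeloid nuclei, at 1.04-fold the B cell level.

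In dendritic nuclei, 32.3% of 1237 genes were at 2 or more and 12.0% at 0.5 or less, and Ccr7, the 1 member tested, was in neither group. By TMM scaling, and without mitochondrial genes and Malat1, its ratio was below 0.5, as given above. In B cells the shares were 14.3% and 26.9% of 5191 genes, and 5 of 8 members (Ccl21a, Cxcl13, Cxcl12, Lta and Ltb) were at most 0.5. B cells are the background reference for the 3 chemokines, so those values too are of background. The values for Ccl21a, Cxcl13 and Cxcl12 rest on 0 UMIs in 37 nuclei and that for Lta on 1, and 3 UMIs in place of 0 would give ratios of 0.360, 0.846 and 1.03. In T or NK cells the shares were 15.5% and 22.6% of 5037 genes, and all 5 members tested (Ccl21a, Ccr7, Cxcr4, Lta and Ltb) were at most 0.5, with Ccl21a at 0.820-fold the B cell level and thus background in the WT-labelled library. Relative to genes of like intronic length, the T or NK cell ratio of Cxcr4 was 0.659 (0.175 to 1.76), no longer at most 0.5. The median log2 ratio of all genes was −0.26 in B cells and −0.22 in T or NK cells.

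Intronic length moved with these ratios. Among the 200 genes nearest to Ltb in intronic length, the median log2 ratio was −0.99 in B cells and −0.81 in T or NK cells. Relative to these genes, the log2 ratio of Ltb was −0.76 (−1.60 to −0.03) in B cells, against −1.75 as scaled to the class total, and −2.11 (−2.87 to −1.44) in T or NK cells, against −2.91. The same step turned Cxcl13 in ASPCs from 0.39 to 0.87 (0.36 to 1.41), Cxcl12 in ASPCs from −0.25 to 0.29, Ltbr in adipocytes from −0.12 to 0.59, and Cxcr4 in myeloid nuclei from −0.19 to 0.47. It brought Cxcl12 in endothelial nuclei from −1.10 to −0.33 (−0.81 to 0.14), an interval that included no difference.

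Partner genes of the pathway were listed as 22 further receptors and ligands and 8 genes of noncanonical NF-kB, and 15 and 8 of them had at least 50 UMIs in the WT-labelled library. A gene is counted where its level in a class was at least 2 times, or at most 0.5 times, that of the other nuclei of the library. In B cells, 7.83% of 11093 genes were higher and 20.8% lower by this rule. Of the receptors and ligands, 5 were higher, Tnf, Tnfrsf13c, Gpr183 and Ccr6 among them, and 5 lower, and of the NF-kB genes Nfkb2 and Birc3 were higher and 0 lower. Tnfrsf13c, the receptor of the B cell survival factor BAFF, had 303 CPM in B cells, 10.0-fold (8.36 to 12.0) the level elsewhere, and Ccr6 had 199 CPM, 7.10-fold (5.82 to 8.69).

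In T or NK cells, 9.15% of genes were higher and 19.5% lower. Of the receptors and ligands, 4 were higher, Gpr183, S1pr1 and Cxcr3 among them, and 5 lower, and none of the NF-kB genes was either. S1pr1, the receptor by which lymphocytes leave lymph nodes, had 459 CPM in T or NK cells, 4.25-fold (3.78 to 4.79) the level elsewhere, and 200.4 CPM in B cells. KO-labelled T or NK cells had 174 CPM of S1pr1 and KO-labelled B cells 128 CPM.

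Gpr183, the receptor for the oxysterol that Ch25h helps to make, had 180 CPM in WT-labelled and 383 CPM in KO-labelled B cells, and 196 and 155 CPM in T or NK cells. Birc3, one of the listed NF-kB genes, had 197 CPM in WT-labelled and 425 CPM in KO-labelled B cells. The remaining partners with most UMIs in T or NK cells were Birc2, with 171 and 71.1 CPM, Chuk, the kinase IKKα, with 114 and 58.1 CPM, and Traf3, a brake on the pathway, with 78.7 and 252 CPM in the WT-labelled and KO-labelled libraries.

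In lymphoid stroma, 8.18% of genes were higher and 20% lower. Tnfrsf1b, Tnfsf13b and Ch25h were higher and 4 receptors and ligands lower, and Ch25h was also a marker that named the class. Tnfsf13b, which encodes BAFF, had 142 CPM, 19.2-fold (12.4 to 29.5) the level elsewhere. Of the NF-kB genes, Map3k14, the kinase NIK that Ltbr controls, had 122 CPM, 2.39-fold (1.64 to 3.37), and Birc2 had 1142 CPM, 4.13-fold (3.66 to 4.64). The median fold of the 8 NF-kB genes was 1.51 in this class, 1.46 in B cells and 0.955 in T or NK cells, against 0.876, 1.04 and 1.09 over all genes. That of the 15 receptors and ligands was 0.700, 0.582 and 0.812.

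The genes most like each member over the 9 clusters with at least 30 nuclei of the WT-labelled library were found by Pearson's r of log2(CPM + 10) among 11063 genes. They are a description, since few clusters set each value. Ccl21a was most like Clu (r = 0.99), Pnkd and Pcdh15. Ccl19 was most like Serpina10 (r = 0.97), and Cxcl13 most like Pdlim3 (r = 0.99), Ano1 and Des. Cxcl12 was most like Il33 (r = 0.98), Cxcr5 most like Rdh12, Fcrla and Hip1r, and Ltb most like Usp34, Acap1 and Ube2d3. Over the 11 such clusters of the KO-labelled library, Cxcl13 was most like Fbn1 (r = 0.97), Osr1 and Itgbl1, and Ltb most like Ikzf3 (r = 0.99).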

How the data were processed

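Single-nucleus RNA-Seq was made from iWAT with 10x Genomics 3′ v3.1 chemistry, as 1 library for each of 2 genotypes. The authors deposited raw UMI counts for each gene in each barcode. Cell Ranger is named in the file header (6.1.1), and mm10, Cell Ranger and Seurat 4 are named in the submitters' processing notes. Whether reads in introns were counted is not given in the sources used here, and coordinates come from RefSeq on GRCm38.p6.

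Barcodes with at least 500 genes and at most 5% mitochondrial UMIs were kept (7064612 WT-labelled and 16625924 KO-labelled UMIs). They were clustered in Seurat 5.3.0 (R 4.3.3) from 2000 variable genes without the members and partner genes, with 20 principal components, 20 neighbours, resolution 0.5 and no alignment. A marker passed at 5% of nuclei or more and a CPM at least 2-fold the average over other clusters, and a name needed at least 3 passing markers and a lead of at least 3. Doublets were kept. Scrublet (scanpy 1.11.5) marked none in the WT-labelled library, so an alternative leaves out the 4% highest scores of each library. The members, marker lists and partner lists were chosen with earlier results of these data known.

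Counts were summed by class and library. Levels have exact Poisson intervals, shares exact Clopper-Pearson intervals and ratios exact conditional binomial intervals (scipy 1.17.1), at 95%, and cover counting error only. A count of 0 allows up to 3 counts. Shares of nuclei were compared after thinning to 500 UMIs. All 10 members are named. From the partner list, the 6 genes with most UMIs in B cells and in T or NK cells are named, except 1 gene that is not reported here, and others were chosen after their values were seen. Like genes are the 3 with the highest r. The interval steps were tested on simulated independent Poisson counts, which do not cover UMIs gathered in few nuclei. Alternatives were TMM scaling (edgeR 4.0.16), scaling without mitochondrial genes and Malat1, scaling by the median ratio of the 200 genes nearest in intronic length, at least 1000 genes per barcode, anchor integration, resolution 1, members among the variable genes, and thinning.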

Additional observations from a re-analysis of the deposited data

Results flagged for a closer look

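Barcodes that the filters left out also held UMIs of the members. They were 2491 UMIs in 1351 barcodes of the WT-labelled library and 522 UMIs in 2056 barcodes of the KO-labelled library, above what a count of 0 allows. In the WT-labelled library, Ccl21a made up 268 CPM (247 to 290) of the left-out barcodes and 228 CPM of the kept nuclei. Cxcl13 made up 123 CPM (109 to 138) of them and 75.4 CPM (69.2 to 82.1) of the kept nuclei, but 5 of the left-out barcodes held 139 of the 285 Cxcl13 UMIs. These barcodes were not assigned to a class.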

How the results depend on the processing

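No paired analysis was possible because each genotype had 1 library and the labels give no replicate numbers. Of 202 values under other settings, 10 values of the comparisons above and 31 others fell outside the interval of the value reported. No ratio that was past 2-fold as reported changed sign. Scaling by genes of like intronic length gave log2 ratios of 0.29 for Cxcl12 in ASPCs, −0.33 for Cxcl12 in endothelial nuclei, −0.76 and −2.11 for Ltb in B cells and in T or NK cells, 0.47 for Cxcr4 in myeloid nuclei and 0.59 for Ltbr in adipocytes, so that the sign turned for Cxcl12 in ASPCs, Cxcr4 and Ltbr, none of them past 2-fold as reported. Ltbr in ASPCs was −0.85 (−1.62 to −0.02) with at least 1000 genes per barcode and −0.80 (−1.52 to −0.03) without mitochondrial genes and Malat1, and Cxcl12 in ASPCs −0.51 (−0.88 to −0.13) under the latter. Cxcr5 in B cells was −0.15 after integration and Cxcr4 in B cells −0.23. Thinning to 500 UMIs gave −0.77 for Ccr7 in T or NK cells, 1.06 for Ltbr in ASPCs (from 2 and 10 UMIs, against −0.54 unthinned) and a lymphoid stroma share of 42.1% for Cxcl13, and the interval of each of these 3 held the value reported. Without the 4% highest doublet scores, ASPCs of the KO-labelled library held 86.7% of Cxcl13. For the thinning and doublet settings the cause was not tested. The lymphoid stroma class was not separated with at least 1000 genes per barcode. After integration a cluster of 169 and 53 nuclei passed 10 lymphoid stroma and 10 mural markers and stayed unnamed. No ratio in B cells or dendritic nuclei could be given without the 4% highest doublet scores or with at least 1000 genes per barcode, and none for Ccr7 in dendritic nuclei after integration, since too few nuclei kept the name. Few nuclei limit all lymphocyte values of the KO-labelled library (37 B cells and 69 T or NK cells) and any Lta or Ccl19 value there (5 and 2 UMIs).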

Other observations

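Atypical receptors clear these chemokines without signalling migration. Ackr3, which takes up Cxcl12, was highest in ASPCs, with 167 UMIs (205 CPM) in the WT-labelled library and 1746 UMIs (514 CPM) in the KO-labelled library, 12.4-fold (9.67 to 16.1) and 16.2-fold (14.6 to 18.1) the level in the other nuclei of each library. Ackr4, which takes up Ccl19, Ccl21 and other chemokines, had 27 UMIs (12.4 CPM) in adipocytes of the WT-labelled library and 1124 UMIs (119 CPM) in those labelled KO. The latter was 8.30-fold (6.78 to 10.3) the level in the other nuclei of that library. Both genes were chosen from the partner list after their values were seen.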
